A study of Mus musculus with 15 samples.

Results

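The genes described here are 6 interferon regulatory factors (Irf1, Irf2, Irf3, Irf7, Irf8 and Irf9), the signal transducers Stat2 and Stat3, and Ifnar1, a chain of the type I interferon receptor. They were chosen by name, with earlier results of these data known, as 9 of the 16199 genes in a table of RPKM values from mouse ventricle. RPKM stands for reads per kilobase of coding sequence, scaled to the mapped reads of each library. All 9 passed the filter on low values that left 10557 genes for testing. Irf9 is listed in the table under its older symbol Isgf3g and was matched by its Entrez identifier, 16391. The study induced the RNA-binding protein CELF2 in heart and sequenced poly(A)+ RNA from 15 FVB mice aged 14 to 16 weeks, 3 in each of 5 groups. The 12 induced mice carried MHCrtTA, in which the alpha-myosin heavy chain promoter drives a doxycycline-dependent activator in cardiomyocytes, together with TRECUGBP2, a human CELF2 transgene that this activator switches on. They were fed doxycycline at 2 g/kg for 12 h, 24 h, 72 h or 7 d. The 3 control mice carried MHCrtTA without the CELF2 transgene and received doxycycline for 72 h, so all 15 hearts held the activator and the drug, and the same 3 controls served every time point. Only the 72 h group matched the controls in time on doxycycline. At 12 h, 24 h and 7 d that time differed as well, and its part cannot be told apart from that of CELF2. Ventricles were taken after removal of the atria and a small piece of the apex.

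Type I interferon binds a receptor formed by Ifnar1 and Ifnar2, and the kinases attached to it phosphorylate STAT proteins. Stat2 then joins with Irf9 and another STAT into a complex that enters the nucleus and binds the interferon-stimulated response element (ISRE) of antiviral genes. Irf7, itself an interferon-induced gene, and Irf3 switch on interferon genes after sensing of foreign nucleic acid, Irf1 and Irf2 act in opposite directions at shared sites, Irf8 is a factor of myeloid cells, and Stat3 carries signals of the interleukin-6 family, which are studied in heart for their part in cardiomyocyte survival and growth.

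CELF2 induction was visible in every heart, with 84.5 to 359 RPKM for Celf2 in the induced hearts and at most 11.3 RPKM in the controls. The titles carry a number with 3 values, whose meaning is not stated in the labels or methods, and hearts that share it are called code groups A, B and C here. Code group A held 1 control, 1 heart each at 12 h, 24 h and 7 d, and 2 at 72 h. Code group B held 2 controls and 2 hearts each at 12 h and 24 h, and code group C held only late hearts, 1 at 72 h and 2 at 7 d. Y-linked mRNA was present in 1 of 3 control, 0 of 3 12 h, 2 of 3 24 h, 3 of 3 72 h and 3 of 3 7 d hearts, so this property moved with time. The tissue label was borne out by 10 cardiomyocyte marker genes, whose summed level lay between 40240 and 50560 RPKM in all hearts. The table gives no read totals, so depth is unknown and precision is given by the spread between hearts.

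In control hearts the 9 genes spanned from 33.7 ± 6.29 RPKM for Stat3 (mean ± SD, n = 3 here and for each group below) to 2.17 ± 0.378 RPKM for Irf8, on a scale that is per length and so allows levels of different genes to be compared. Between these came Irf3 at 20.4 ± 1.91 RPKM, Irf1 at 16.4 ± 1.74 RPKM, Irf9 at 16.3 ± 1.54 RPKM, Irf2 at 11.9 ± 1.42 RPKM, Stat2 at 8.5 ± 0.982 RPKM, Irf7 at 6.47 ± 0.643 RPKM and Ifnar1 at 5.27 ± 0.462 RPKM. Irf1 and Irf9 overlapped in their control hearts, and no other neighbours in this order did. At 24 h Irf9 had moved behind Irf2 with no overlap of hearts, Stat2 overlapped with Ifnar1, and at 7 d Ifnar1 stood ahead of Stat2 with no overlap.

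**Figure D1:**
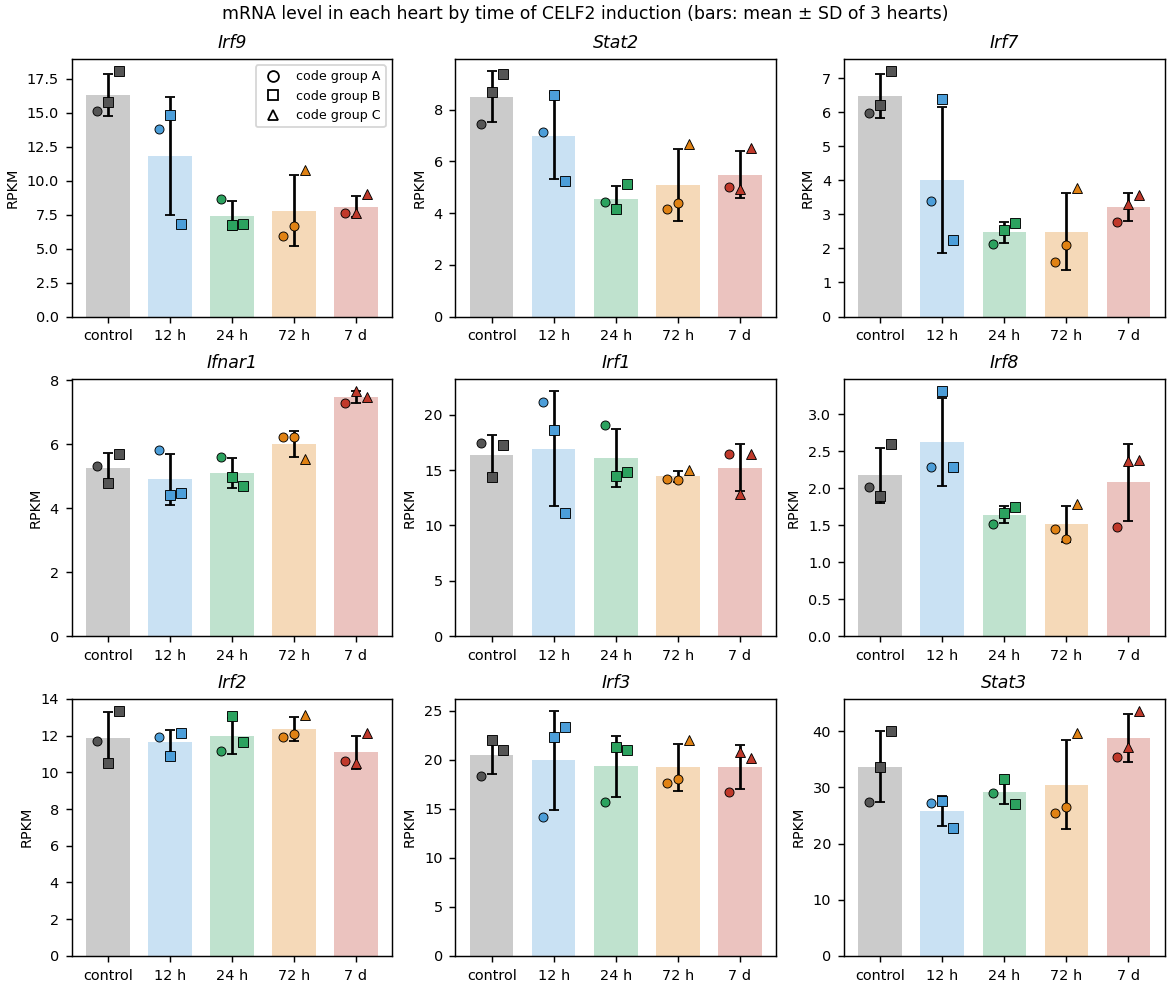
RPKM of the 9 genes in each of 15 hearts (points, with the shape giving the code group of the title), by group, with bars at the group mean and error bars of 1 SD (n = 3). Irf9 is below all controls in each induced heart, Irf7 and Stat2 are below them in 11 of 12, and Ifnar1 is above all controls in the 7 d hearts.

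The positions of these genes on mm9, the build to which the reads were mapped, bear on what a read can be assigned to. Irf9 (chr14:56222408-56228867, plus strand) shares exonic sequence with Rnf31 on the same strand, so reads of that stretch could belong to either gene. Irf1 (chr11:53583516-53591876), Irf3 (chr7:52253018-52258218), Irf7 (chr7:148448605-148452380) and Stat3 (chr11:100746412-100800854) overlap exons of a gene on the opposite strand, from which the strand-specific libraries can separate them. Exons of Irf2 (chr8:47825099-47932812), Irf8 (chr8:123260258-123280594), Stat2 (chr10:127707629-127729905) and Ifnar1 (chr16:91485483-91507686) overlap no other annotated gene.

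The start regions of the 9 genes were searched for the sites that these factors themselves bind, since 1 member can be a target of another. RefSeq promoters (GRCm38.p6, 250 bases before to 50 after each start, 12 promoters of the 9 genes) were read for the ISRE letters GAAA, 2 free bases and GAAA, on either strand, and for the gamma-activated site (GAS) TTCNNNGAA, which is its own reverse complement. The ISRE letters occur in 3.44% and the GAS letters in 8.3% of 32851 mouse promoters. Stretches of 30 bases around 5 matches are shown 5′ to 3′, each found at 1 place on its chromosome in mm9 plus strand, with the matching letters in capitals.
Irf2, ISRE, chr8:47824849-47824878: tggggaagtGAAAATGAAAttgacttttcc
Stat2, ISRE on the opposite strand, chr10:127707322-127707351: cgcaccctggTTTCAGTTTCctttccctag
Irf1, GAS, chr11:53583416-53583445: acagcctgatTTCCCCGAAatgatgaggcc
Irf8, GAS, chr8:123260077-123260106: caaaagtgatTTCTCGGAAagagagcgctt
Ifnar1, GAS, chr16:91485445-91485474: ggcgggggcgTTCACGGAAggggcggggcg
The ISRE match lay 241 bases before the RefSeq start in Irf2 and 222 before it in Stat2, and the GAS match lay 90 bases before it in Irf1, 171 in Irf8 and 5 in Ifnar1. These distances are counted from the start of the RefSeq promoter. For Stat2 and Ifnar1 that start is not the mm9 gene start given above. Irf2 had a GAS match as well, 224 bases before its start, and Irf8 had another at 153. No match was found in the windows of Irf3, Irf7, Irf9 or Stat3, which says only that these letters are not there.

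Irf9, Irf7 and Stat2 were the members with lower levels in induced hearts. Irf9, the DNA-binding subunit of the Stat2 complex, measured 15.09, 15.82 and 18.04 RPKM in the control hearts. It measured 13.79, 14.85 and 6.82 RPKM at 12 h, and 8.63, 6.75 and 6.83 RPKM at 24 h. Each of these hearts was below the lowest control, with 2 of the 12 h hearts close to it and the other at the level of the 24 h group. At 72 h Irf9 stood at 5.92, 6.68 and 10.75 RPKM and at 7 d at 7.63, 7.61 and 8.99 RPKM, again without overlap with controls. The group means were 72.4%, 45.4%, 47.7% and 49.5% of the control mean at 12 h, 24 h, 72 h and 7 d. In tissue RNA of this kind, fewer cells of a type and less RNA per cell cannot be told apart.

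Irf9 fell at 7 d by 0.97 ± 0.25 (SE) on the log2(RPKM + 0.5) scale, on which all fold changes here are given and which understates changes of low genes (limma, Benjamini-Hochberg adjusted p = 0.0243). With Ifnar1 it was 1 of 2 members called there, where 9.99% of all tested genes were called, 4.16% as lower. Its difference was -1.09 at 24 h (adjusted p = 0.156) and -1.06 at 72 h (adjusted p = 0.0731). Averaged over the 4 times, Irf9 fell by 0.91 ± 0.20 (adjusted p = 0.0477), and so did Irf7, with 0.871% of genes called in this comparison and 0.578% as lower. All 12 induced hearts were below all 3 controls for Irf9, a pattern shared by 1.18% of genes, and the exact two-sided permutation test over hearts gave p = 0.00440, the smallest that 12 hearts against 3 allow. The 7 d call was lost, with adjusted p between 0.0535 and 0.0888, when 7 d replicate 1, 7 d replicate 2 or any control was left out.

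Stat2, the partner of Irf9 with an ISRE match in its start region, measured 7.44, 8.68 and 9.38 RPKM in controls and 7.15, 8.55 and 5.26 RPKM at 12 h. It then measured 4.42, 4.14 and 5.12 RPKM at 24 h, 4.16, 4.39 and 6.67 RPKM at 72 h, and 5.02, 4.92 and 6.53 RPKM at 7 d. From 24 h on every heart was below every control, while at 12 h the groups overlapped. The means from 24 h on were 53.7%, 59.7% and 64.6% of control. Differences were -0.83 (adjusted p = 0.158), -0.71 (adjusted p = 0.124) and -0.59 (adjusted p = 0.0662), none past the threshold at a single time in limma. Over all induced hearts the difference was -0.60 ± 0.15 (adjusted p = 0.0845), with 11 of 12 hearts below every control and p = 0.00879 in the exact permutation test. Stat2 passed the F test over the 5 groups (adjusted p = 0.0399).

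Irf7, which amplifies the interferon response, measured 5.99, 6.22 and 7.20 RPKM in controls and 3.38, 6.39 and 2.24 RPKM at 12 h. At 24 h the hearts held 2.14, 2.54 and 2.75 RPKM, at 72 h 1.61, 2.09 and 3.78 RPKM and at 7 d 2.78, 3.30 and 3.58 RPKM. The 12 h hearts spread from the level of the 24 h group to within the control range, and all later hearts were below the controls. The means were 38.3%, 38.5% and 49.8% of control at 24 h, 72 h and 7 d, with differences of -1.23 (adjusted p = 0.164), -1.28 (adjusted p = 0.0664) and -0.91 (adjusted p = 0.0614). Irf7 fell by 1.04 ± 0.23 over all induced hearts (limma adjusted p = 0.0488), with 11 of 12 hearts below every control and p = 0.0132 in the exact permutation test. Both all-time calls sat close to the threshold, and for Irf7 and Irf9 alike leaving out any single control raised the adjusted p to between 0.144 and 0.263.

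The 7 d hearts of Irf7 were all above its 24 h hearts, where 24.9% of tested genes showed that order, and the difference of 0.32 did not pass the test (adjusted p = 0.495). For Irf9 the 7 d and 24 h hearts overlapped, with a difference of 0.12 (adjusted p = 0.785), and for Stat2 they overlapped with a difference of 0.24 (adjusted p = 0.441).

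Irf8, a myeloid factor and the lowest of the 9, measured 2.02, 1.89 and 2.60 RPKM in controls, 2.28, 3.31 and 2.29 RPKM at 12 h, and 1.51, 1.67 and 1.74 RPKM at 24 h. It measured 1.45, 1.31 and 1.79 RPKM at 72 h and 1.48, 2.37 and 2.38 RPKM at 7 d. The 24 h and 72 h hearts lay below all controls, and the 12 h and 7 d hearts overlapped them. None of its differences passed the test, the most negative being -0.40 at 72 h (adjusted p = 0.333). Together 4 members (Irf7, Irf8, Irf9 and Stat2) had hearts wholly below controls at 24 h, an order found in 14.5% of tested genes, and the same 4 at 72 h, where the share was 10.8%. At 7 d they were Irf7, Irf9 and Stat2, beside 13.4% of genes, and at 12 h Irf9 alone, beside 13.2%.

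The limma fit called 0 of 9 members at 12 h, 24 h and 72 h, where 0.388%, 0.0947% and 0.597% of all tested genes were called. At an unadjusted p under 0.05 there were 2 members at 12 h (Irf7 and Stat3), 3 at 24 h (Irf7, Irf9 and Stat2) and 4 at 72 h (these 3 and Irf8), beside 12.3%, 9.21% and 13.7% of all tested genes. Over the 5 groups the F test called 4 members, Irf7, Irf9, Stat2 and Ifnar1, with adjusted p from 0.0255 to 0.0399, beside 11.7% of all genes. The median difference of the 9 members was -0.10, -0.19, -0.17 and -0.09 at the 4 times, and that of all tested genes was -0.10, -0.10, -0.08 and 0.03.

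**Figure D2:**
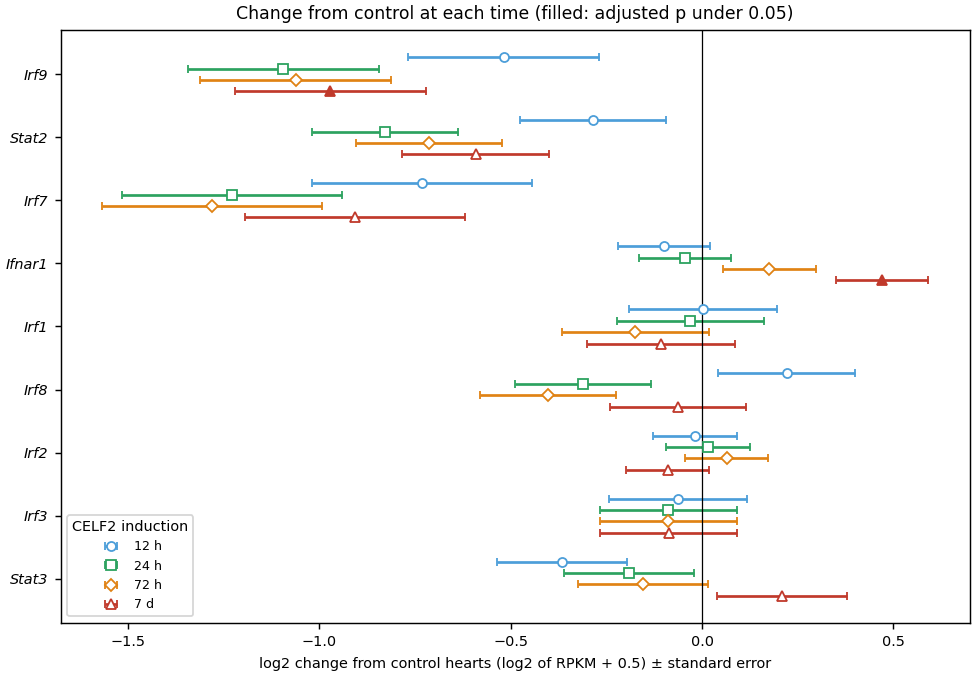
Difference of each gene from the control hearts in log2(RPKM + 0.5) after each length of induction (12 h, 24 h, 72 h, 7 d), with bars of 1 standard error from limma and filled points at an adjusted p under 0.05. Irf9 at -0.97 and Ifnar1 at 0.47, both at 7 d, are the 2 filled points.

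Irf3, which is activated by phosphorylation, and Irf1 and Irf2 showed no difference between groups that passed a test. Irf1 measured 17.49, 14.39 and 17.30 RPKM in controls and between 11.12 and 21.12 RPKM in induced hearts, both ends of which were 12 h hearts. Irf2 stayed between 10.51 and 13.35 RPKM over all 15 hearts, and its largest difference from control was -0.09 at 7 d (adjusted p = 0.690). Irf3 lay between 14.16 and 23.33 RPKM and divided by code group, with 14.16 to 18.30 RPKM in the 6 hearts of code group A and 20.22 to 23.33 RPKM in the 9 hearts of groups B and C. A position of code group A wholly below the other 2 was found in 6.44% of tested genes. The F test gave adjusted p of 0.912 for Irf1, 0.824 for Irf2 and 0.988 for Irf3.

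Ifnar1 was the member that rose. It measured 5.32, 4.78 and 5.70 RPKM in controls, 5.83, 4.42 and 4.47 RPKM at 12 h, and 5.61, 4.99 and 4.68 RPKM at 24 h. Levels were 6.24, 6.24 and 5.55 RPKM at 72 h and 7.30, 7.66 and 7.47 RPKM at 7 d. The 7 d hearts were above every other heart of the series, 42.0% over the control mean. Ifnar1 rose by 0.47 ± 0.12 at 7 d (limma adjusted p = 0.0238), when 5.83% of tested genes were called higher, and its hearts did not overlap with controls, as in 18.3% of genes. Against 24 h, a comparison without control hearts, it rose by 0.52 ± 0.12 (adjusted p = 0.0113) and was the only member called, beside 15.0% of all genes, 11.1% as higher. The median of all tested genes in that comparison was 0.13, and with scalings that bring this median to within 0.02 of 0 Ifnar1 differed by 0.37 to 0.39, with adjusted p from 0.0570 to 0.0879. With the code group as a covariate the difference from control was 0.38 (adjusted p = 0.0728), with Y-linked mRNA as a covariate 0.48 (adjusted p = 0.117), and with both 0.15 (adjusted p = 0.719). Leaving out any 7 d heart, control replicate 1 or control replicate 2 also ended the 7 d call (adjusted p from 0.0517 to 0.108).

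Stat3 measured 27.48, 33.55 and 40.06 RPKM in controls, 27.24, 27.52 and 22.70 RPKM at 12 h, and 29.06, 31.43 and 27.05 RPKM at 24 h. It measured 25.37, 26.47 and 39.71 RPKM at 72 h and 35.48, 37.15 and 43.64 RPKM at 7 d. The wide control range overlapped every induced group, and no difference from control passed the test, from -0.37 at 12 h (adjusted p = 0.401) to 0.21 at 7 d (adjusted p = 0.505). The 7 d hearts were all above the 24 h hearts, an order shared by 24.9% of tested genes. The difference was 0.40 ± 0.17 (adjusted p = 0.131), beside a median of 0.13 over all tested genes. The 3 hearts of code group C, all late, held 37.15 to 43.64 RPKM. With the code group as a covariate the difference between 7 d and 24 h was 0.20 (adjusted p = 0.506), and with Y-linked mRNA as well it was 0.05 (adjusted p = 0.932).

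Within code groups, the lower levels of Irf9, Irf7 and Stat2 at 24 h and 72 h had the same direction. At 24 h Irf9 was 57.2% of the control in code group A and 40.1% in group B, Irf7 was 35.7% and 39.4%, and Stat2 was 59.4% and 51.3%. In code group A, which alone holds a control beside late hearts, the 72 h mean was 41.8% of the control for Irf9, 30.9% for Irf7 and 57.5% for Stat2. The 7 d heart of that group was at 50.6%, 46.4% and 67.5%. For Ifnar1 it was at 137%. These values rest on 1 control, and code group C holds none. With the code group as a covariate, Irf9 (adjusted p = 0.0235), Irf7 (adjusted p = 0.0232) and Stat2 (adjusted p = 0.0205) passed the test at 24 h. That covariate raised the count over all tested genes too, at 12 h from 41 to 772 of 10557. At 24 h 0.0947% of all tested genes were called without it, and the share with it is not given here. With the Y-linked mRNA as a covariate the calls of Irf9 at 7 d (-0.90, adjusted p = 0.150) and of Irf7 (-1.10, adjusted p = 0.115) and Irf9 (-0.88, adjusted p = 0.144) over all induced hearts were lost. In the hearts without Y-linked mRNA, Irf9 was 15.09 and 15.82 RPKM in 2 controls, 13.79, 14.85 and 6.82 RPKM in the 3 hearts at 12 h and 8.63 RPKM in the 24 h heart. In the hearts with it, Irf9 was 18.04 RPKM in the control and 5.92 to 10.75 RPKM in the 8 hearts from 24 h to 7 d.

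For 7 of the 9 genes, all but Irf2 and Stat3, the SD was larger in the 12 h hearts than at any later time. Replicates 1 and 2 were both above replicate 3 for Irf1, Irf7, Irf9, Stat2 and Stat3 and not for the other 4 genes, and for Irf1 they stood at 21.12 and 18.58 against 11.12 RPKM for Irf1. The summed level of the interferon-stimulated effector genes below was 318 and 348 RPKM in replicates 1 and 2 and 209 RPKM in replicate 3. The median log2 difference of the 24 tested effector genes from their control means was -0.29, -0.33 and -0.96 in replicates 1, 2 and 3. The summed level of 16 macrophage markers went the same way, at 188 and 209 RPKM against 131 RPKM.

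Genes that the Stat2 and Irf9 complex is known to switch on were mostly lower as well. Their list, like those below, was chosen with earlier results of these data known. Of 35 listed effector genes, 28 were in the table and 24 were tested. The fit called 1, 3, 5 and 9 of them as lower at 12 h, 24 h, 72 h and 7 d, and none as higher, beside 0.284%, 0.0568%, 0.36% and 4.16% of all genes. Their median difference was -0.48, -0.60, -0.60 and -0.49. A difference above 0 was found in 1 of the 24 at each of 12 h, 24 h and 7 d and in 0 at 72 h. At 7 d 17 of them had hearts wholly below the controls and 1 had hearts wholly above, beside 13.4% and 18.3% of all genes. Ifit3, which restricts viral RNA, fell from 6.78 ± 0.973 RPKM in controls to 2.79 ± 0.248 RPKM at 24 h (-1.14, adjusted p = 0.0270) and 3.18 ± 0.484 RPKM at 7 d (-0.98, adjusted p = 0.00155). Oasl2, of the oligoadenylate synthetase family, fell from 5.39 ± 0.589 RPKM to 1.84 ± 0.0700 RPKM at 24 h (-1.33, adjusted p = 0.0364). Rtp4 fell from 10.3 ± 0.909 RPKM to 4.06 ± 0.755 RPKM at 24 h (-1.25, adjusted p = 0.0364) and was at 5.23 ± 0.923 RPKM at 7 d (-0.92, adjusted p = 0.0116). Trim25, a ubiquitin ligase of RNA sensing, fell by 0.52 at 7 d (adjusted p = 0.0127). Between 379 and 440 RPKM in controls, the summed level of the 28 genes was 209 to 348 RPKM at 12 h, 225 to 262 RPKM at 24 h, 214 to 285 RPKM at 72 h and 246 to 302 RPKM at 7 d, in no heart reaching the controls.

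Genes of MHC class I presentation and of the interferon gamma response, a list of 23 with 19 tested, had differences below 0 in all 19 at 24 h, 72 h and 7 d and a median of 0.05 at 12 h. Medians at the later times were -0.74, -0.77 and -0.70, and 13, 16 and 13 genes had hearts wholly below the controls, beside the 14.5%, 10.8% and 13.4% of all genes. The fit called 0 of them at 12 h, 24 h and 72 h and 2 as lower at 7 d, beside 4.16% of all genes. B2m, the light chain of class I molecules, fell from 499.5 ± 75 RPKM to 229 ± 41.5 RPKM (-1.13, adjusted p = 0.0240), and H2-D1, a heavy chain, fell from 382 ± 40.0 RPKM to 201 ± 5.90 RPKM (-0.92, adjusted p = 0.0426). H2-T23 at -0.90 (adjusted p = 0.0557) and H2-K1 at -1.04 (adjusted p = 0.0606) did not pass.

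**Figure D3:**
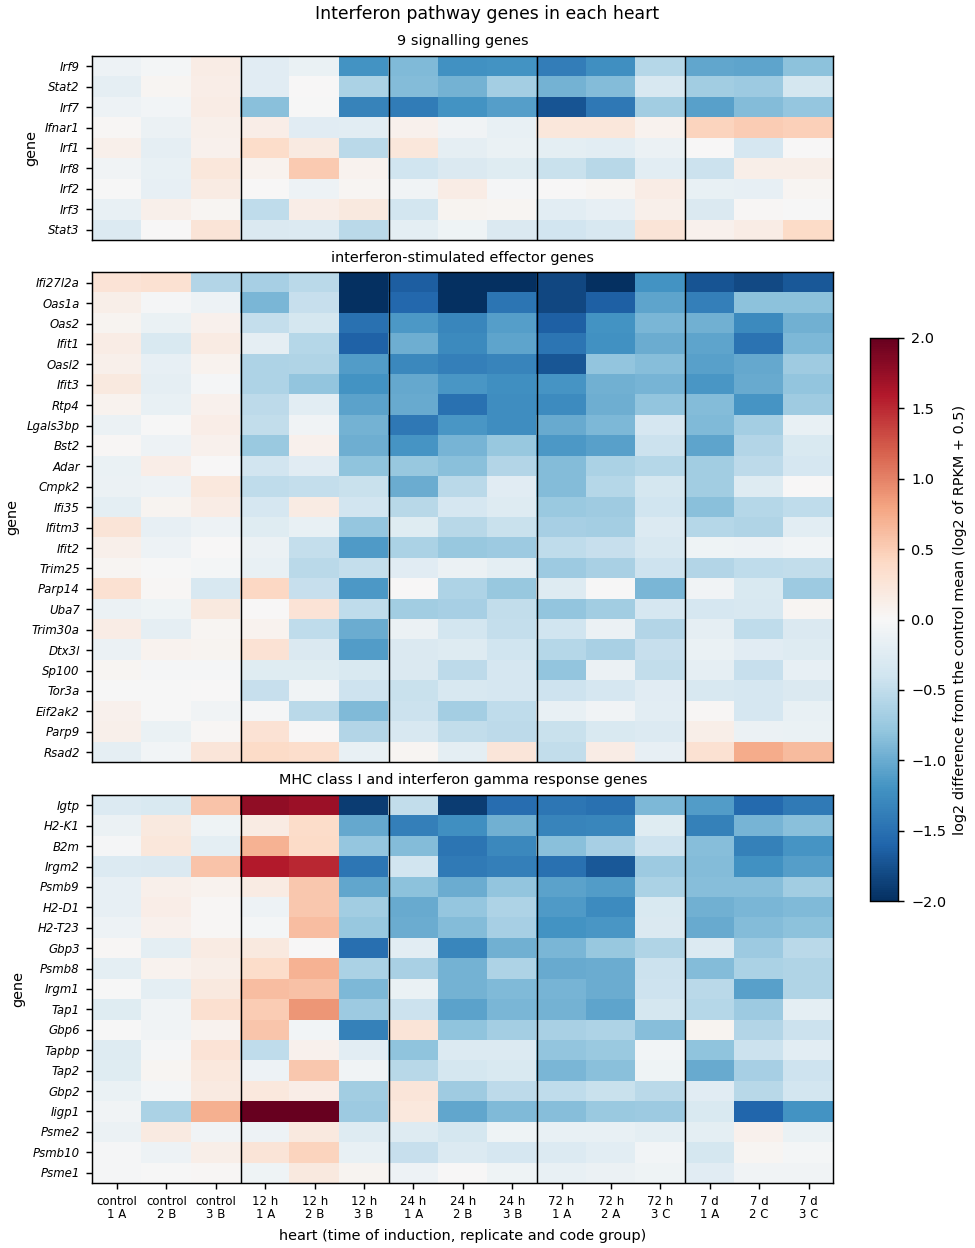
Difference of each gene from its control mean in log2(RPKM + 0.5), in every heart, for the 9 signalling genes, 24 effector genes and 19 MHC class I and interferon gamma response genes; columns give time, replicate and code group, and colours stop at 2 in either direction. Blue (lower) fills most effector rows from 24 h on, with 1 of the 24 genes above 0 in its group difference at 24 h and 1 at 7 d. In the bottom block 12 h replicates 1 and 2 stand apart from replicate 3, with list medians of 0.21 and 0.53 against -0.73.

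Upstream of these factors, 0 of 11 receptor and JAK kinase genes were called against control at any time. Ifnar2, the partner of Ifnar1, was 25.8 ± 1.53 RPKM in controls and 28.6 ± 1.67 RPKM at 7 d (0.14, adjusted p = 0.435). Between 24 h and 7 d Osmr, the oncostatin M receptor, fell by 0.42 (adjusted p = 0.0164), while Ifnar2 (0.31, adjusted p = 0.0597) and Ifngr2, of the interferon gamma receptor (0.32, adjusted p = 0.0728), did not pass. The interferon ligands in the table were close to absent, and interferon beta was not among them. Of 17 listed ligands (interferons, the interleukin-6 family and Il10) 13 were in the table, and the level of the others is not known. Only Ctf1 passed the filter, at 4.38 ± 1.38 RPKM in controls and 2.17 ± 0.511 RPKM at 7 d (-0.84, adjusted p = 0.0527). The interferon alpha genes Ifna1, Ifna2, Ifna5, Ifna6 and Ifna11 were listed at 0 in 12 or 13 of 15 hearts, with at most 0.11 RPKM in any, and Ifng at 0 in 12.

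Among 12 tested brakes on JAK-STAT signalling 1 was called lower and 1 higher at 7 d, beside 4.16% and 5.83% of all genes. Usp18, an interferon-induced inhibitor at the receptor, fell from 2.82 ± 0.445 RPKM to 1.36 ± 0.497 RPKM at 7 d (-0.87, adjusted p = 0.0258) and by 0.94 over all induced hearts (adjusted p = 0.0291). Ptpn2, a phosphatase of JAK and STAT proteins, rose from 5.86 ± 1.01 RPKM to 9.50 ± 1.53 RPKM (0.65, adjusted p = 0.0444), and Pias1, an inhibitor of STAT binding to DNA, fell by 0.33 from 24 h to 7 d (adjusted p = 0.0379), a comparison in which 15.0% of all genes were called. Of 12 tested nucleic acid sensors and adaptors, 1 was called higher at 7 d, beside 5.83% of all genes, and 2 between 24 h and 7 d, beside 11.1%. Ticam1, an adaptor through which Toll-like receptors reach Irf3, rose from 5.69 ± 0.827 RPKM to 10.7 ± 0.599 RPKM at 7 d (0.86, adjusted p = 0.00348). Traf3, which links these adaptors to the kinases of Irf3 and Irf7, rose by 0.89 between 24 h and 7 d (adjusted p = 0.0129).

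Of 18 tested STAT3 target genes, 2 rose and none fell at 7 d, beside the 5.83% called higher among all genes. Pim1, a kinase of cell survival, rose from 6.35 ± 1.02 RPKM to 11.2 ± 1.86 RPKM (0.77, adjusted p = 0.0113). Ccl2, a monocyte-attracting chemokine, was 1.47 ± 0.135 RPKM in controls, 0.833 ± 0.120 RPKM at 24 h and 3.36 ± 0.824 RPKM at 7 d, and rose by 1.52 between the last 2 of these (adjusted p = 0.000846). Bcl3 rose by 0.75 over the same interval (adjusted p = 0.0328), and Osmr, which is on this list too, fell by 0.42 (adjusted p = 0.0164), so that 2 of the 18 rose and 1 fell, beside the 15.0% of all genes called and 11.1% called higher. The list median was 0.12 at 7 d against 0.03 for all genes. Other Irf and Stat genes, of which 5 of 8 were tested, had no calls in any comparison, with a median of -0.43 at 72 h and -0.17 at 7 d. Irf5 at -0.36 (7 d, adjusted p = 0.118), Stat6 at -0.43 (72 h, adjusted p = 0.190) and Stat5b at 0.28 (7 d against 24 h, adjusted p = 0.373) were among them.

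**Figure D4:**
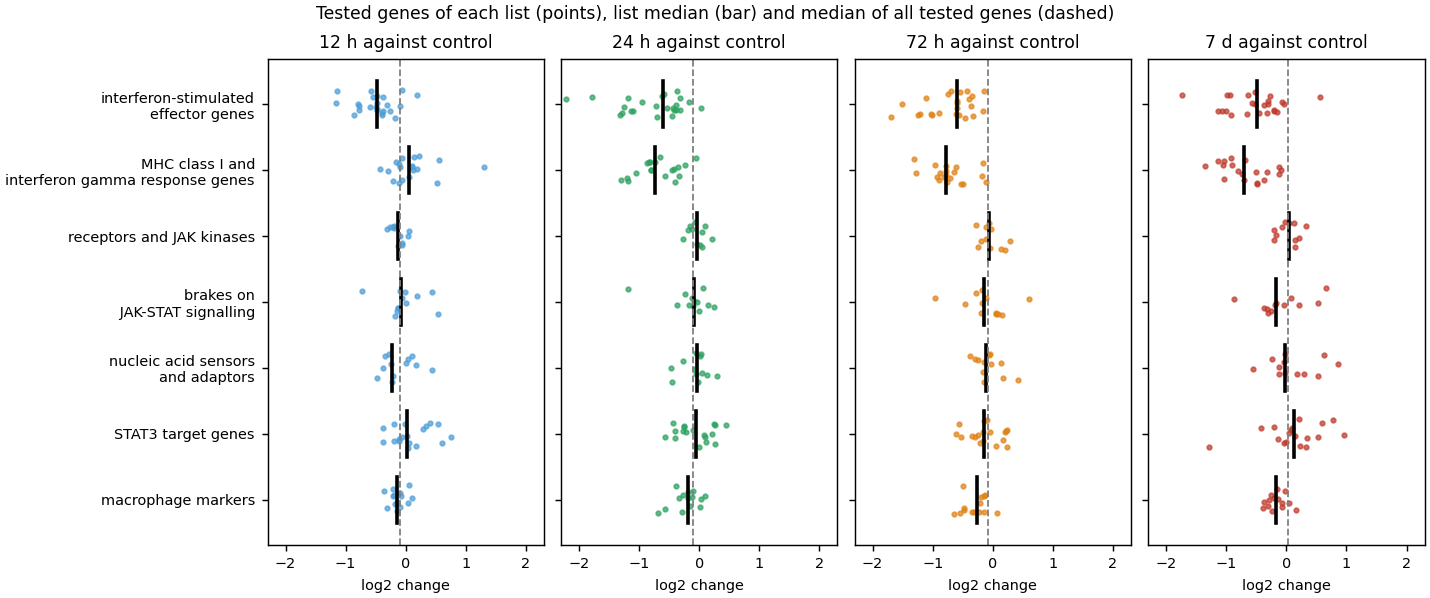
Difference from control in log2(RPKM + 0.5) at each time for the tested genes of 7 lists (points), with the list median as a black bar and the median of all tested genes as a dashed line. The effector genes have medians between -0.48 and -0.60 at all 4 times and the MHC class I list has 0.05 at 12 h and -0.70 to -0.77 later, while the receptor and JAK kinase medians stay between -0.13 and 0.05.

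Marker genes of cell types that carry these factors were read beside the members. The 16 macrophage markers, all of which were above 0 in every heart, summed to 190 to 202 RPKM in controls, 131 to 209 RPKM at 12 h, 151 to 170 RPKM at 24 h, 114 to 164 RPKM at 72 h and 145 to 193 RPKM at 7 d. Lyz2 alone was at 31.2 to 78.0 RPKM over the 15 hearts. The sums at 24 h and 72 h were thus wholly below the controls, as were Irf8, Irf7, Irf9 and Stat2 at those times, and their part in these levels was not tested. None of the 14 tested macrophage markers was called in any comparison, with medians of -0.15, -0.19, -0.27 and -0.18 at the 4 times. Lymphocyte markers summed to 2.43 to 4.69 RPKM over 12 genes in all hearts, with Cd8a at 0 in 7 hearts, and 6 neutrophil markers to 0.26 to 2.88 RPKM, with the 2 highest sums in 12 h hearts. Of plasmacytoid dendritic cell markers, Siglech was at most 0.17 RPKM and 1 of the 2 tested genes, Bst2, is also an effector gene. Endothelial markers summed to 281 to 413 RPKM over all hearts, and 1 of 10, Flt1, fell at 7 d (-0.36, adjusted p = 0.0406), beside 4.16% of all genes. From 24 h to 7 d Flt1 fell by 0.59 (adjusted p = 0.00175) and Kdr rose by 0.67 (adjusted p = 0.00144), beside 15.0% of all genes called. Fibroblast markers summed to 562 to 707 RPKM, with medians of -0.28 at 24 h and -0.34 at 72 h. At each of these times 4 of 9 genes were wholly below controls, beside 14.5% and 10.8% of all genes, and at 24 h 1 of the 9 was wholly above them. Col3a1, a fibrillar collagen, fell from 91.9 ± 10.5 RPKM in controls to 44.9 ± 3.87 RPKM at 24 h (-1.02, adjusted p = 0.0337) and rose by 1.05 from 24 h to 7 d (adjusted p = 0.000595). Dcn went the other way, from 332 ± 2.35 RPKM to 390 ± 21.7 RPKM at 24 h (0.23, adjusted p = 0.399). It then fell by 0.33 to 7 d (adjusted p = 0.0180). In that late comparison 2 of the 9 markers were called higher and 1 lower, beside 15.0% of all genes called and 11.1% called higher. Of 10 cardiomyocyte markers 1 rose at 7 d, Actc1 (0.63, adjusted p = 0.000366), and 2 fell, Myh6 (-0.36, adjusted p = 0.0261) and Pln (-0.41, adjusted p = 0.0157). Among all genes 5.83% were called higher and 4.16% lower at that time. The part of these markers in the members' levels was not tested.

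Over the 15 hearts, the tested genes whose log2 level followed each member most closely were named as a description, since these hearts share code groups and treatment. Irf9 was followed by Parp12 (Pearson r = 0.97) and Oas2 (r = 0.96), Irf7 by Bst2 (r = 0.96) and Stat2 (r = 0.94), and Stat2 by Irf9 (r = 0.94) and H2-Q8 (r = 0.94). Irf1 was followed by Gbp4 (r = 0.89) and Gbp6 (r = 0.88), and Irf8 by Coro1a (r = 0.93) and Ntn4 (r = 0.91). The nearest genes of the remaining members were Sart1 and Exosc5 for Irf3 (r = 0.96 for both), Tmem111 (r = 0.96) and Ccm2 (r = 0.94) for Stat3, Cxadr (r = 0.96) and Hif1a (r = 0.95) for Ifnar1, and Polr2a (r = 0.84) and Pdk2 (r = 0.80) for Irf2. With each code group centred on its own mean these r values lay between 0.83 and 0.98.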

How the data were processed

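Strand-specific paired-end RNA-seq of poly(A)+ RNA was available for 15 ventricles. The authors mapped reads uniquely to mm9 (Bowtie and TopHat in the submitters' processing notes, versions not given in the sources used here) and deposited RPKM values, with lengths counted over constitutive coding exons of RefSeq genes and reads scaled to uniquely mapping nonribosomal, nonmitochondrial reads. Totals of reads were not used. Groups came from the sample labels and code groups from a number in the titles, whose meaning is not stated. The labels of induced hearts also name a Celf1 cassette and the series text describes Celf1 in muscle, both at odds with the methods and not used. A supplementary list of animals gives doxycycline as 6 g/kg. Replicates are separate animals without shared numbers.

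Of 16199 genes, the 10557 whose mean reached 1 RPKM were tested with limma 3.58.1 (R 4.3.3) with a mean-variance trend on log2(RPKM + 0.5), all 5 groups in a single fit, and called at a Benjamini-Hochberg adjusted p under 0.05 over all tested genes. Exact two-sided permutation tests over hearts used scipy 1.17.1. With 3 hearts against 3 they cannot go below 0.10. The fit was tested on simulated data. Members and gene lists were chosen with earlier results of these data known. All 9 members are named. From each list at most 4 genes with the smallest adjusted p were named, and for each member the 2 nearest genes by Pearson r. Markers named with 0 or low values, and Ifitm3, named for its part in a sum, were chosen after their values were seen. One gene that this rule would name is not reported here but counts in its list. Alternatives were pseudocounts of 0.1 and 1, no filter or a minimum of 5 RPKM, 3 scalings, code group and Y-linked mRNA as covariates, the compared groups alone, and leaving out each heart. Library quality weights, estimated gene by gene, were added after seeing the data, since the default estimate did not converge.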

Additional observations from a re-analysis of the deposited data

Results flagged for a closer look

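Ifnar1 differed between late and early induction. Its level was 0.52 higher at 7 d than at 24 h on the log2(RPKM + 0.5) scale (SE 0.12, limma adjusted p = 0.0113). All 3 hearts at 7 d were above every 24 h heart, an order found in 24.9% of tested genes. In this comparison 15.0% of all genes were called, 11.1% as higher, and the median of all tested genes was 0.13. With each of 3 scalings the difference was 0.37 to 0.39 and did not pass (adjusted p from 0.0570 to 0.0879). The difference from control was 0.47 at 7 d and -0.04 at 24 h. The 7 d and 24 h hearts differ in code group and in Y-linked mRNA, which was present in 3 of 3 and 2 of 3 hearts, and with both as covariates the difference was 0.26 (adjusted p = 0.355).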

How the results depend on the processing

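No paired analysis was possible because the labels give the groups no shared replicate numbers. No difference that passed the test changed direction under any alternative, and 12 h had 0 members called under every one. The count over all tested genes moved with the setting as well. At 12 h it went from 41 to 772 of 10557 with the code group as a covariate. The member counts below therefore do not stand beside the same share of all genes in each alternative. At 24 h the count of members called went from 0 to 3 with the code group as a covariate, with it and Y-linked mRNA, with gene-by-gene weights and in the compared groups alone, and was 0 to 1 when single hearts were left out (1 without 12 h replicate 3). At 72 h it went from 0 to 1 with upper-quartile scaling, 3 with the code group and 6 with gene-by-gene weights, and was 0 to 3 when single hearts were left out (3 without 72 h replicate 3). At 7 d it went from 2 to 4 with median-ratio scaling, quantile normalization, weights and the compared groups alone and to 0 with Y-linked mRNA, alone or with the code group. Leaving out single hearts gave 0 to 4 there, with 0 without 7 d replicate 1, 7 d replicate 2, control replicate 1 or control replicate 2, and 4 without 12 h replicate 3 or 72 h replicate 3. Over all induced hearts the count of 2 became 0 with a pseudocount of 0.1, without a filter and with Y-linked mRNA, alone or with the code group, 1 with a minimum of 5 RPKM, which leaves fewer genes, and 3 with the code group or weights. It was 0 to 3 when single hearts were left out, with 0 without any control, 24 h or 7 d heart and without 72 h replicate 1 or 2, 1 without 12 h replicate 1 and 3 without 72 h replicate 3. Between 24 h and 7 d the count of 1 became 0 with the 3 scalings and with code group and Y-linked mRNA, 2 with weights, and 0 to 1 when single hearts were left out (0 without 24 h replicate 3). In the F test the count of 4 became 1 without a filter and 0 with Y-linked mRNA, alone or with the code group, 6 with weights, and 0 to 5 when single hearts were left out, the lowest without 7 d replicate 2 or 3 and the highest without 72 h replicate 3. The cause was not tested where none is given. Depth is unknown, and with 3 hearts a group the spread between hearts limits every comparison.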
